A study of Homo sapiens with 18 samples.

Results

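RNA-seq counts were compared between K562 cells that expressed dCas9 without a repressor domain together with the gRNA CR10, called dCas9_CR10, and K562 cells that expressed dCas9-KRAB without any gRNA, called KRAB_no_gRNA. The members were 6 of the 18 libraries of the study, 3 in each group, taken by their titles. Both groups are the human erythroleukaemia line K562, transduced with lentivirus in 4 µg/ml polybrene and put under puromycin at 1 µg/ml about 96 hours later, so the resistance gene, the virus and a form of dCas9 were common to both. CR10 is directed to the globin HS2 enhancer, and the study lists both groups among its controls. Another 3 groups of 3 libraries gave context: dCas9_CR4 (dCas9 with the gRNA CR4, also directed to HS2), KRAB_CR10 and KRAB_CR4 (dCas9-KRAB with each gRNA). The remaining 3 libraries came from cells without lentivirus. They were used in an alternative fit, in the scaling of the cell type marker levels and for some values given as context. The 2 groups compared differ both in the repressor domain and in the gRNA, and effects of the one cannot be told apart from effects of the other. Whether libraries of a group came from separate clones or pools of transduced cells is not given in the labels, so p-values measure the spread between these libraries, which may be technical.

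HS2 is a strong enhancer element of the beta-globin locus control region, which stands upstream of the genes for epsilon-, gamma-, delta- and beta-globin and is needed for their high transcription in red cell precursors. K562 cells carry the BCR-ABL fusion and transcribe the embryonic and fetal members of the cluster, HBE1, HBG1 and HBG2, with very little HBB. A catalytically dead Cas9 binds the site its gRNA names without cutting it, and can get in the way of factors that bind there. The KRAB domain, taken from the zinc finger protein ZNF10, also recruits the co-repressor TRIM28 and histone H3 lysine 9 methyltransferases.

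Library totals were 31052464, 23430398 and 26179446 counts in dCas9_CR10 and 24930756, 26909800 and 25028500 in KRAB_no_gRNA, where each sequenced fragment contributed 2 counts. Ribosomal RNA took 0.726% to 1.101% of counts in dCas9_CR10 and 0.596% to 1.087% in KRAB_no_gRNA. Libraries numbered 3 stood apart from those numbered 1 and 2 in every lentiviral group: on the first principal component, with 70.4% of the variance, they lay between 15.1 and 25.9 and all others between -17.5 and -4. All 13 markers of K562 were detected at 1 CPM or more on average, with summed levels of 4287 to 5477 CPM in dCas9_CR10 and 4865 to 5899 CPM in KRAB_no_gRNA. Defining markers of other lineages (GP9, PF4, MS4A1, ELANE, LUM, KRT5, KRT14) were at 0 counts in all 6 libraries. LYZ, COL1A2 and EPCAM, which were on the lists of other cell types, averaged 17.1, 33.8 and 95 CPM.

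Without pairing by library number, no gene passed at an adjusted p of 0.05 between dCas9_CR10 and KRAB_no_gRNA. Of 14599 genes tested with the edgeR quasi-likelihood test over the 15 lentiviral libraries, 0 were called (0%), and the smallest Benjamini-Hochberg adjusted p was 1. Before adjustment, 245 genes (1.68%) had p under 0.05, of which 148 were higher (1.01%) and 97 lower (0.664%) in dCas9_CR10. DESeq2 also called 0 genes, with a smallest adjusted p of 0.663 and 277 genes at an unadjusted p under 0.05. The median gene had a log2 fold change of 0.01 with a median standard error of 0.20.

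Libraries with the same number in the 2 groups deviated together from their group means, with correlations of 0.784, 0.637 and 0.813. With the library number as a block, edgeR again called 0 genes (0%), the smallest adjusted p was 0.428, and 1508 genes had an unadjusted p under 0.05 (10.3%), 779 higher (5.34%) and 729 lower (4.99%). The median standard error fell to 0.12 with the block, against 0.20 without it. With the block and only the 6 libraries of the 2 groups, which leaves 2 residual degrees of freedom, 5 of 14039 genes were called (0.0356%): MAP1B, EGR1, CD69, FUT1 and ALDH1L2, all higher in dCas9_CR10. DESeq2 with the block on the 15 libraries called 4 (0.0274%): MAP1B, ALDH1L2, KCNE3 and SKIL. MAP1B and ALDH1L2 stand in both lists. No globin gene was among them.

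**Figure D1:**
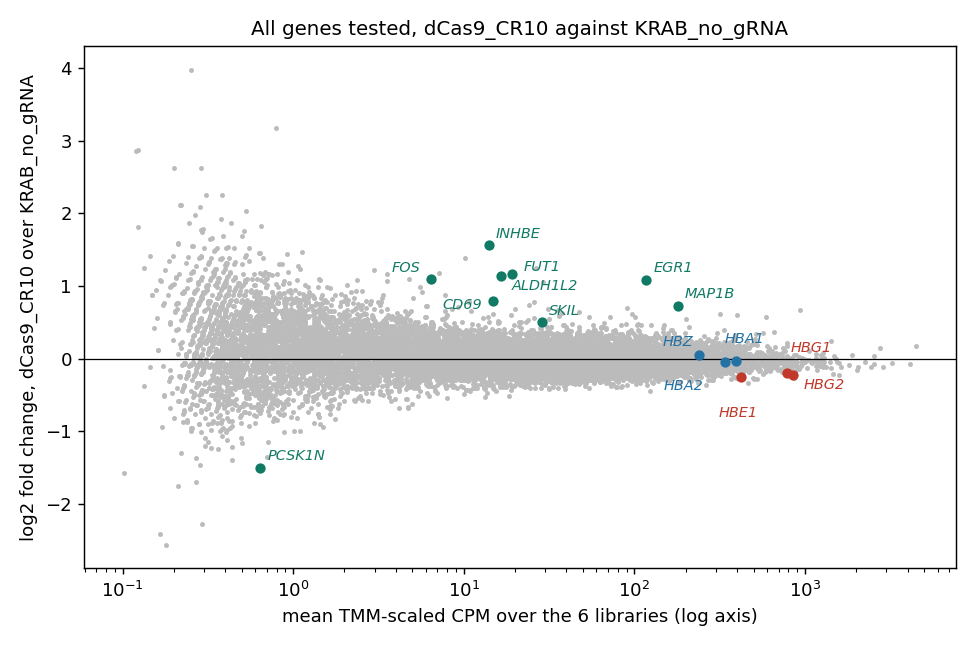
Every point is one of the 14599 genes tested, with its mean TMM-scaled CPM over the 6 libraries on the x axis (log axis) and its fitted log2 fold change, dCas9_CR10 over KRAB_no_gRNA, on the y axis. The beta-globin genes HBE1, HBG1 and HBG2 lie just under 0, at -0.25 to -0.20, HBA1, HBA2 and HBZ lie near 0, and EGR1, FOS and MAP1B lie above it. No gene passed the adjusted threshold in this fit.

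HBE1 (NM_005330), the embryonic epsilon-globin gene and the member nearest to the locus control region, had 327, 435 and 388 CPM in dCas9_CR10, against 432, 468 and 470 CPM in KRAB_no_gRNA. The 3 values of KRAB_no_gRNA lay close together, and the second dCas9_CR10 library reached into their range. The means were 383 ± 54.0 CPM in dCas9_CR10 and 456 ± 21.3 CPM in KRAB_no_gRNA (SD, n = 3 each). The fitted log2 fold change was -0.25 ± 0.13 (SE), a fold of 0.84, with a 95% interval from -0.54 to 0.04 and an edgeR adjusted p of 1. On the linear scale that interval runs from 31.4% lower to 2.95% higher. In a bulk culture, fewer cells that transcribe a gene and less RNA of it per cell cannot be told apart.

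The fetal gamma-globin genes stood in the same order. HBG2 (NM_000184) had 709, 923 and 733 CPM in dCas9_CR10, against 891, 956 and 908 CPM in KRAB_no_gRNA, with a log2 fold change of -0.22 ± 0.13 (95% interval -0.52 to 0.08). HBG1 (NM_000559) had 652, 856 and 677 CPM in dCas9_CR10, against 808, 871 and 825 CPM in KRAB_no_gRNA, with a log2 fold change of -0.20 ± 0.13 (95% interval -0.49 to 0.10). For both genes libraries 1 and 3 of dCas9_CR10 were under all 3 values of KRAB_no_gRNA, and library 2 was inside their range. The edgeR adjusted p was 1 for each. HBG1 and HBG2 are nearly identical, and how reads that match both were counted is not given in the sources used here, so their single values are uncertain.

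Within library numbers, the log2 ratio of HBE1 was -0.40, -0.10 and -0.27, that of HBG2 was -0.33, -0.05 and -0.31, and that of HBG1 was -0.31, -0.02 and -0.29. All 9 ratios were negative, and those of library number 2 were the nearest to 0 for each gene. Of all genes tested, 17.5% were lower in all 3 pairs. With the block the log2 fold changes were -0.26 ± 0.10 for HBE1 (95% interval -0.49 to -0.03), -0.23 ± 0.10 for HBG2 (-0.45 to -0.01) and -0.20 ± 0.09 for HBG1 (-0.42 to 0.01). The edgeR adjusted p with the block was 0.441 for HBE1 and HBG2 and 0.465 for HBG1, so none was called.

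The summed level of HBE1, HBG1 and HBG2 was 1688, 2215 and 1798 CPM in dCas9_CR10, against 2130, 2294 and 2203 CPM in KRAB_no_gRNA. The groups overlapped, and the difference of means of -309 CPM gave p = 0.3 in a two-sided exact permutation test, whose smallest possible p with 3 against 3 libraries is 0.1. HBG1 made up 47.9%, 48.1% and 48% of the HBG1 and HBG2 counts in dCas9_CR10, against 47.5%, 47.7% and 47.6% in KRAB_no_gRNA (exact permutation p = 0.1, the smallest possible), a difference of 0.416 percentage points.

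**Figure D2:**
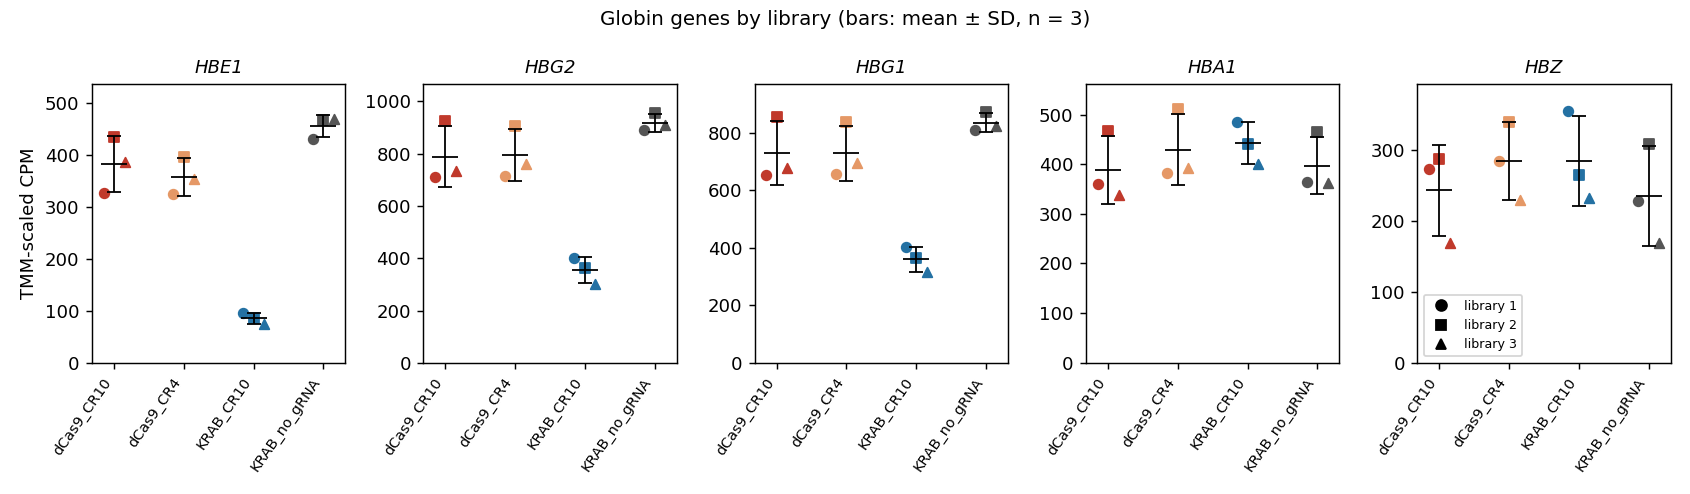
Each point is the TMM-scaled CPM of one library for 5 globin genes in dCas9_CR10, dCas9_CR4, KRAB_CR10 and KRAB_no_gRNA, with bars for the mean ± SD of 3 libraries and symbols for the library number. HBE1, HBG1 and HBG2 lie slightly under KRAB_no_gRNA in dCas9_CR10 with overlap, and far under it in KRAB_CR10. HBA1 and HBZ overlap in all 4 groups.

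The weaker members of the beta-globin cluster also overlapped between the groups. HBBP1 (NR_001589), a pseudogene between the gamma- and delta-globin genes, had 20.9, 25.1 and 18.6 CPM in dCas9_CR10, against 22.6, 23.8 and 23 CPM in KRAB_no_gRNA (log2 fold change -0.10, 95% interval -0.58 to 0.37). HBD, the minor adult delta-globin gene, had 11.4, 18.3 and 5.7 CPM in dCas9_CR10, against 12.9, 17.7 and 10.3 CPM in KRAB_no_gRNA (log2 fold change -0.22, 95% interval -1.20 to 0.76). HBD was lowest in the library numbered 3 of either group. HBB, the adult beta-globin gene, had 14, 16 and 6 counts in dCas9_CR10 and 8, 10 and 8 counts in KRAB_no_gRNA, too few to show a difference of moderate size (95% interval of the log2 fold change -0.97 to 1.79). Of the 6 cluster genes tested, 5 had a negative log2 fold change and 0 were called, with a median of -0.21, against a median of 0.01 over all genes tested.

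The alpha-globin cluster, on chromosome 16 and under an enhancer of its own, served as a comparison within the globins. HBA1 (NM_000558) had 360, 466 and 338 CPM in dCas9_CR10, against 364, 464 and 363 CPM in KRAB_no_gRNA, with a log2 fold change of -0.03 ± 0.15 (95% interval -0.38 to 0.31). HBA2 (NM_000517), whose coding sequence matches that of HBA1 so that reads can be split between them, had 314, 399 and 288 CPM in dCas9_CR10, against 312, 419 and 301 CPM in KRAB_no_gRNA (log2 fold change -0.04, 95% interval -0.42 to 0.34). HBZ (NM_005332), the embryonic zeta-globin gene, had 273, 287 and 169 CPM in dCas9_CR10, against 228, 309 and 169 CPM in KRAB_no_gRNA (log2 fold change 0.05, 95% interval -0.50 to 0.59). The values followed the library number more than the group. HBQ1, the theta-globin gene, had 9.45, 8.31 and 9.96 CPM in dCas9_CR10, against 8.9, 11.9 and 12.3 CPM in KRAB_no_gRNA, with a log2 fold change of -0.26 (95% interval -0.74 to 0.23).

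The ratio of the summed HBE1, HBG1 and HBG2 to the summed HBA1, HBA2 and HBZ was 1.78, 1.92 and 2.26 in dCas9_CR10, against 2.36, 1.92 and 2.65 in KRAB_no_gRNA (exact permutation p = 0.2, smallest possible 0.1). In KRAB_CR10 the same ratio was 0.709, 0.753 and 0.706, under every library of the 2 control groups. The summed alpha-type level was 948, 1152 and 795 CPM in dCas9_CR10 and 904, 1192 and 833 CPM in KRAB_no_gRNA (exact permutation p = 1).

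With the same gRNA, 4 genes of the beta-globin cluster differed between dCas9 without and with the repressor domain, and no alpha-globin gene was called. HBE1 had 327, 435 and 388 CPM in dCas9_CR10, against 95.9, 87.0 and 74.4 CPM in KRAB_CR10, and the groups did not overlap. The log2 difference was 2.16 ± 0.14 (95% interval 1.85 to 2.47, edgeR adjusted p = 1.58e-06). HBG2 had 401, 361 and 302 CPM in KRAB_CR10 (log2 difference 1.15 ± 0.14, edgeR adjusted p = 0.00319) and HBG1 401, 365 and 315 CPM (1.02 ± 0.13, edgeR adjusted p = 0.00737), again with no overlap with dCas9_CR10. HBBP1 had 9.94, 7.78 and 5.75 CPM in KRAB_CR10, with a log2 difference of 1.46 ± 0.22 (edgeR adjusted p = 0.029). These 4 genes and PCSK1N were the 5 of 14599 called (0.0342%), and with the block there were 7 (0.0479%), with HBD and ACSM3 in addition. The unadjusted p was under 0.05 for 0.582% of genes without the block and 2.23% with it. HBD had 7.36, 7.15 and 2.83 CPM in KRAB_CR10 and a log2 difference of 1.02 (edgeR adjusted p = 1, and 0.0212 with the block).

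Between the gRNAs under dCas9, no difference in the globin genes was detected. HBE1 had 327, 435 and 388 CPM in dCas9_CR10, against 325, 397 and 354 CPM in dCas9_CR4, a log2 difference of 0.10 (95% interval -0.20 to 0.39). HBG2 had 716, 905 and 762 CPM in dCas9_CR4 (log2 difference of dCas9_CR10 over it -0.01, 95% interval -0.31 to 0.29), and HBG1 had 655, 837 and 696 CPM (0.00, 95% interval -0.29 to 0.29). The intervals allow differences larger than the fitted difference from KRAB_no_gRNA, in either direction for HBG2 and HBG1 and upward for HBE1. Across all genes 0 were called between dCas9_CR10 and dCas9_CR4 (0%), with 172 at an unadjusted p under 0.05 (1.18%), and with the block 0 were called and 924 had an unadjusted p under 0.05 (6.33%).

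**Figure D3:**
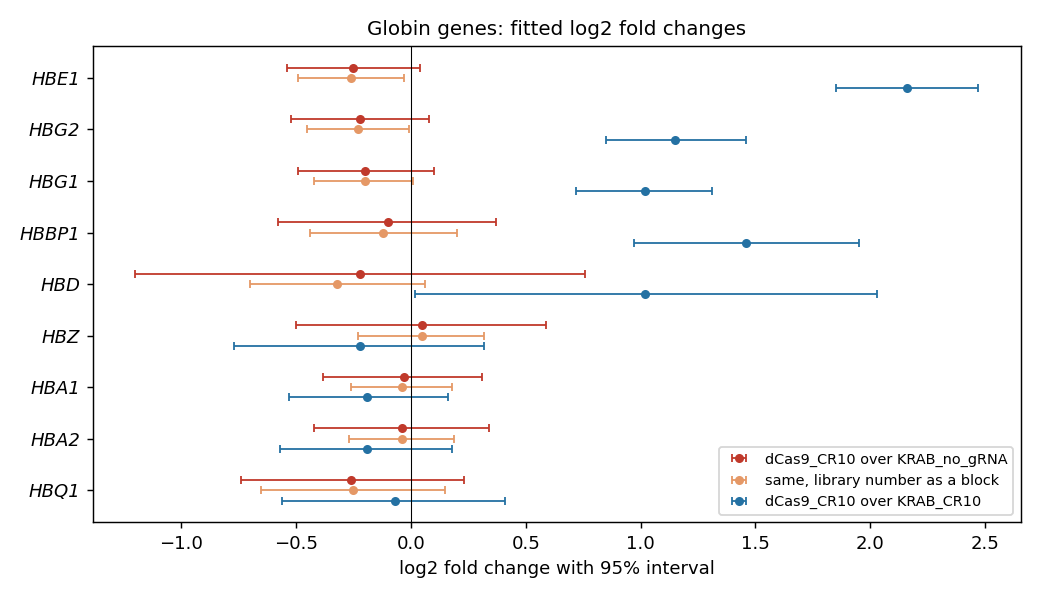
Fitted log2 fold changes of 9 globin genes with 95% intervals, for dCas9_CR10 over KRAB_no_gRNA without and with the library number as a block, and for dCas9_CR10 over KRAB_CR10. Against KRAB_no_gRNA the estimates for HBE1, HBG2 and HBG1 lie at -0.26 to -0.20 and their intervals reach or nearly reach 0. Against KRAB_CR10 the same genes lie at 1.02 to 2.16, and the alpha-globin genes stay at or under 0 with intervals that include it.

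Genes beside the globin cluster were followed because HS2 lies among them. Of 67 genes within 1 Mb of the cluster on chromosome 11, most of them olfactory receptors, 15 were detected well enough to be tested and 0 were called, 7 higher and 8 lower, with a median log2 fold change of -0.02. TRIM5, a restriction factor for retroviruses, had the smallest p of them, with 24.2, 22.8 and 30.8 CPM in dCas9_CR10 and 21.8, 17.2 and 23.9 CPM in KRAB_no_gRNA (log2 fold change 0.31, 95% interval -0.16 to 0.77). OR51B2, an olfactory receptor gene close to the cluster, had 1.22, 1.56 and 2.09 CPM in dCas9_CR10, against 1.2, 0.608 and 1.62 CPM in KRAB_no_gRNA (log2 fold change 0.50, 95% interval -0.34 to 1.34). Both genes overlapped between the groups.

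GATA1, TAL1 and KLF1, erythroid transcription factors that occupy the locus control region, overlapped between the groups. GATA1 had 179, 212 and 199 CPM in dCas9_CR10, against 188, 193 and 227 CPM in KRAB_no_gRNA (log2 fold change -0.05, 95% interval -0.30 to 0.21). The intervals were -0.41 to 0.43 for TAL1 and -0.45 to 0.35 for KLF1, an activator of adult beta-globin. Among 20 erythroid transcription factors tested, 9 were higher, 11 lower and 0 called (median log2 fold change -0.05). There were 2 of the 20 that did not overlap. BACH1, a repressor that binds the locus control region, had 113, 108 and 112 CPM in dCas9_CR10, against 99.9, 101 and 86.4 CPM in KRAB_no_gRNA (log2 fold change 0.21 ± 0.13, edgeR adjusted p = 1). LYL1, a relative of TAL1, had 122, 105 and 97.3 CPM in dCas9_CR10 and 130, 132 and 132 CPM in KRAB_no_gRNA (log2 fold change -0.28 ± 0.13, edgeR adjusted p = 1). Of all genes, 2.49% were lower and 3.38% higher in dCas9_CR10 with no overlap. Among 18 regulators of the switch between fetal and adult globin, 10 were higher, 8 lower and 0 called, with a median of 0.03, and LIN28B, a fetal RNA-binding protein that keeps gamma-globin on, had a log2 fold change of 0.15 (95% interval -0.22 to 0.52).

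The genes with the smallest p-values lay outside the globin loci. SKIL (NM_005414), a SMAD co-repressor that dampens TGF-beta signalling, had 32.7, 33.2 and 35.4 CPM in dCas9_CR10, against 23.9, 23.9 and 23.7 CPM in KRAB_no_gRNA. The groups were narrow and did not overlap, and the log2 fold change was 0.50 ± 0.12 (95% interval 0.23 to 0.77) with an unadjusted p of 0.000886, the smallest of all genes averaging at least 1 CPM outside the globin clusters, and an edgeR adjusted p of 1. DESeq2 with the block called it (adjusted p = 0.0455). SKIL was also above KRAB_no_gRNA in the other groups with a gRNA, at 30.9, 25.9 and 32.6 CPM in dCas9_CR4 and 40, 34.5 and 34.1 CPM in KRAB_CR10. Cells without lentivirus, which carry no gRNA, had 26.4, 51.3 and 36.3 CPM as scaled with all 18 libraries. The difference of dCas9_CR10 over dCas9_CR4 was 0.18 (95% interval -0.09 to 0.45).

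Immediate early genes are transcribed within minutes of a growth factor or stress signal, through serum response factor at CArG boxes and CREB or ATF factors at cAMP response elements. EGR1 (NM_001964), a zinc finger transcription factor of this class, had 229, 149 and 100 CPM in dCas9_CR10, against 66.6, 81.9 and 75.4 CPM in KRAB_no_gRNA. All 3 dCas9_CR10 libraries were above all 3 of KRAB_no_gRNA, but they spread widely, with means of 159 ± 64.8 CPM and 74.6 ± 7.66 CPM (SD, n = 3 each). The log2 fold change was 1.09 ± 0.33 (95% interval 0.35 to 1.83, edgeR adjusted p = 1), and the blocked fit of the 2 groups called it (1.01, edgeR adjusted p = 0.00928). FOS (NM_005252), a partner in the AP-1 factor, had 13.1, 6.49 and 6.86 CPM in dCas9_CR10, against 3.21, 3.49 and 5.63 CPM in KRAB_no_gRNA, again with no overlap (log2 fold change 1.10 ± 0.32, edgeR adjusted p = 1). Both genes were highest in library 1 of dCas9_CR10, and the log2 ratio within numbers was 1.77, 0.86 and 0.41 for EGR1 and 1.87, 0.81 and 0.26 for FOS.

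Other members of the class lay on either side of 0. FOSB had 1.61, 1.73 and 2.45 CPM in dCas9_CR10, against 1.44, 1.97 and 2.39 CPM in KRAB_no_gRNA (log2 fold change 95% interval -0.77 to 0.76), and JUN, the other AP-1 partner, had 34.3, 25.6 and 30.8 CPM in dCas9_CR10, against 32.1, 33.9 and 25.3 CPM in KRAB_no_gRNA (interval -0.36 to 0.34). Of 23 immediate early genes tested, 8 were higher, EGR1 and FOS among them, 15 lower and 0 called, with a median of -0.08. With the block, 3 had an unadjusted p under 0.05 and were higher and 1 was lower. Over all genes tested, 5.34% were higher and 4.99% lower at that threshold. KLF4 lay under KRAB_no_gRNA in every library, at 0.45, 0.173 and 0.289 CPM in dCas9_CR10 and 0.801, 0.683 and 0.617 CPM in KRAB_no_gRNA (edgeR adjusted p = 1). In dCas9_CR4, EGR1 had 90, 106 and 104 CPM and FOS 5.18, 7.09 and 5.32 CPM. The difference of dCas9_CR10 over dCas9_CR4 was 0.67 for EGR1 (95% interval -0.07 to 1.40) and 0.59 for FOS (-0.11 to 1.29), and neither passed. EGR1 had 109, 74 and 134 CPM in KRAB_CR10 and 56.4, 153 and 76.9 CPM in KRAB_CR4. FOS had 6.3, 3.89 and 5.35 CPM in KRAB_CR10 and 3.6, 6.58 and 5.13 CPM in KRAB_CR4.

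EGR1, FOS and SKIL were higher in every dCas9_CR10 library than in any of KRAB_no_gRNA. They were among 493 such genes of the 14599 tested (3.38%), as was BACH1. The promoters of EGR1, FOS and SKIL are shown. Each is 300 bases of RefSeq sequence on GRCh38.p14, plus strand, from 250 bases before the start to 50 after it, with capitals for TGACGT on either strand (ACGTCA on the other), the core of the cAMP response element. Where TGACGT and ACGTCA overlap, as in TGACGTCA, both were counted. The lines hold chr5:138465229-138465528 for EGR1, chr14:75278578-75278877 for FOS and chr3:170357465-170357764 for SKIL, while the deposited counts rest on hg19.
EGR1: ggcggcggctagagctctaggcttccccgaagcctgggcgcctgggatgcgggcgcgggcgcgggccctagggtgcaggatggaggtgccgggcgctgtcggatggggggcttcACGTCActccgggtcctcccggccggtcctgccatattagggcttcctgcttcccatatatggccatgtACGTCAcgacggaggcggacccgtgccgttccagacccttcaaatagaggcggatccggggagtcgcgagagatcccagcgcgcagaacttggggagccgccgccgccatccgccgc
FOS: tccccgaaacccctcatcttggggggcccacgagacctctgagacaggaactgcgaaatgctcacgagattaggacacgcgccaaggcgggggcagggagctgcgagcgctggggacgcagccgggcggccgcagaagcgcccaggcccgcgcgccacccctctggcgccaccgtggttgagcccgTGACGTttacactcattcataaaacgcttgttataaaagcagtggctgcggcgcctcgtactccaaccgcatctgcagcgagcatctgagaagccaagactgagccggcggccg
SKIL: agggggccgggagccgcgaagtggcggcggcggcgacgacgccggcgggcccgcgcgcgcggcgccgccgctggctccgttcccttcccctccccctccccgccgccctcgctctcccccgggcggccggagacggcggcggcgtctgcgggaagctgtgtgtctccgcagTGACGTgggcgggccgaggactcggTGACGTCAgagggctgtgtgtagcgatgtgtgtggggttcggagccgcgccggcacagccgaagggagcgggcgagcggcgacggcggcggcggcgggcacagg
The windows held 2 matches in EGR1, 1 in FOS and 3 in SKIL, and 7.98% of the 35116 promoters in the same table held at least 1. The CArG box was found 2 times in the EGR1 window, and 1.29% of promoters held one. The genes were chosen after their values were seen, and a match is a description of the letters only.

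Among genes averaging at least 1 CPM outside the globin clusters, the 10 with the smallest unadjusted p were taken. Of these, 7 were higher and 3 lower in dCas9_CR10, each with an edgeR adjusted p of 1. Each was also without overlap, which the choice by small p favours. Over all genes tested, 3.38% were higher and 2.49% lower without overlap. KRIT1, which holds endothelial junctions together, had 99.9, 108 and 104 CPM in dCas9_CR10 and 86.5, 80.2 and 77.7 CPM in KRAB_no_gRNA (log2 fold change 0.35 ± 0.11). SH3BGRL2 had 50.7, 52.2 and 59.6 CPM in dCas9_CR10 and 38.9, 43.6 and 40.8 CPM in KRAB_no_gRNA (0.40 ± 0.12). LCLAT1, a cardiolipin acyltransferase, and PARD6B, a cell polarity protein, had log2 fold changes of 0.43 and 0.52. In the other direction, PLCD3, a phospholipase C, had 22.1, 21.4 and 20.1 CPM in dCas9_CR10 and 29.8, 28.1 and 26.1 CPM in KRAB_no_gRNA (-0.40 ± 0.13). NEK6, a mitotic kinase, and FOXRED1, an assembly factor of respiratory complex I, had log2 fold changes of -0.45 and -0.35.

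**Figure D4:**
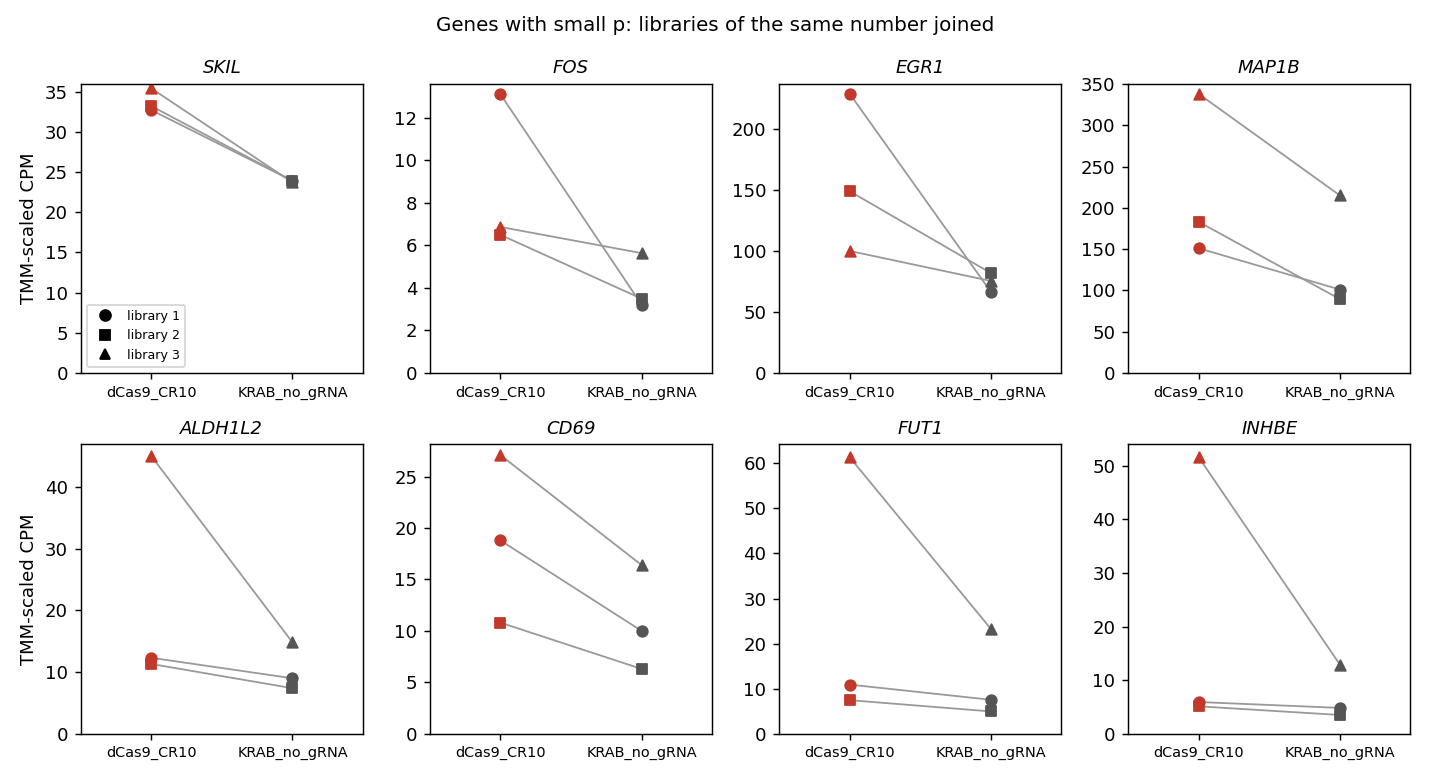
TMM-scaled CPM of 8 genes in dCas9_CR10 and KRAB_no_gRNA, one point per library, with a line joining libraries of the same number. SKIL, EGR1 and FOS separate the groups, while MAP1B, ALDH1L2, CD69, FUT1 and INHBE overlap between groups but are higher in dCas9_CR10 in each pair, with library 3 of dCas9_CR10 far above the others for ALDH1L2, FUT1 and INHBE.

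Under the same limits, of the 10 genes with the smallest p in the blocked fit, 7 overlapped between the groups. In these 7, libraries of the same number differed in 1 direction, which the choice by the blocked fit favours. Over all genes tested, 17.5% were higher and 17.5% lower in all 3 pairs. MAP1B (NM_005909), a microtubule-associated protein best known from neurons, had 151, 183 and 338 CPM in dCas9_CR10, against 101, 89.4 and 215 CPM in KRAB_no_gRNA. Every dCas9_CR10 library was above its namesake, by 0.58, 1.03 and 0.65 on the log2 scale. It had a log2 fold change of 0.73 (95% interval -0.21 to 1.67) without the block and 0.75 ± 0.15 with it (edgeR adjusted p = 0.428). The edgeR adjusted p was 0.00122 in the blocked fit of the 2 groups alone, and the DESeq2 adjusted p with the block was 0.00781. MAP1B in dCas9_CR4 was 131, 98.5 and 268 CPM, with a difference of dCas9_CR10 over it of 0.43 (95% interval -0.50 to 1.37).

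CD69, an early activation antigen of leukocytes, had 18.8, 10.8 and 27.1 CPM in dCas9_CR10, against 10, 6.3 and 16.4 CPM in KRAB_no_gRNA. Its log2 ratio was 0.87, 0.73 and 0.71 within numbers, nearly the same in each (blocked edgeR adjusted p = 0.00928 in the 2 groups alone, 0.43 on 15 libraries). KCNE3, a potassium channel subunit, had 7.01, 6.06 and 17.1 CPM in dCas9_CR10, against 4.97, 3.42 and 8.03 CPM in KRAB_no_gRNA (DESeq2 adjusted p with the block 0.0179). PHLDA2, an imprinted growth regulator on chromosome 11, was the one gene of the 10 with a negative sign, at 18.3, 16.4 and 11 CPM in dCas9_CR10 and 22, 24.6 and 18.9 CPM in KRAB_no_gRNA (blocked log2 fold change -0.53 ± 0.12, edgeR adjusted p = 0.43). Without the block, the log2 difference of dCas9_CR10 over KRAB_CR10 was 0.11 for CD69, 0.13 for KCNE3 and 0.07 for PHLDA2.

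Other genes of this kind were far higher in library 3 of dCas9_CR10 than in any other of the 6 libraries. ALDH1L2, the mitochondrial formyltetrahydrofolate dehydrogenase, had 12.3, 11.3 and 45 CPM in dCas9_CR10, against 8.98, 7.37 and 14.8 CPM in KRAB_no_gRNA (log2 ratio within numbers 0.43, 0.59 and 1.57; blocked edgeR adjusted p = 0.0425 in the 2 groups alone). FUT1, which makes the H blood group antigen, had 10.9, 7.44 and 61.4 CPM in dCas9_CR10, against 7.53, 4.94 and 23.3 CPM in KRAB_no_gRNA (adjusted p = 0.0195 in the same edgeR fit). INHBE, an activin subunit gene that ATF4 induces, had 5.91, 5.11 and 51.6 CPM in dCas9_CR10, against 4.81, 3.49 and 12.9 CPM in KRAB_no_gRNA. High values were also seen outside these 6 libraries. Library 3 of KRAB_CR4 had 35.4 CPM of ALDH1L2, 56.4 of FUT1 and 41.9 of INHBE. Library 2 of the cells without lentivirus had 194, 51.7 and 209 CPM of these, as scaled with all 18 libraries. The log2 ratio within numbers was 0.51, 0.55 and 1.38 for FUT1 and 0.27, 0.49 and 1.96 for INHBE, positive in each pair. Without library 3 of dCas9_CR10 the unblocked log2 fold change was -0.37 for FUT1 and -0.36 for INHBE. That fit kept library 3 of KRAB_no_gRNA, the highest of its group for both genes, so its sign is not that of the pairs.

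The list with the largest median was that of the unfolded protein and amino acid response, which cells run through ATF4 when amino acids are short or proteins misfold. Of 38 genes tested, 34 had a positive log2 fold change and 0 were called, with a median of 0.37, against 0.01 over all genes, of which 52.1% were positive. With the block, 13 had an unadjusted p under 0.05 and were higher and 1 was lower, where 5.34% of all genes were higher and 4.99% lower. The median log2 ratio was 0.04 in the pair numbered 1, -0.06 in that numbered 2 and 0.77 in that numbered 3, and without library 3 of dCas9_CR10 the fitted median was -0.06. ASNS, asparagine synthetase, had 267, 267 and 602 CPM in dCas9_CR10, against 274, 290 and 304 CPM in KRAB_no_gRNA. Of the libraries of these groups only the third of dCas9_CR10 stood apart, and library 3 of KRAB_CR4 had 455 CPM. CHAC1, which degrades glutathione, had 9.45, 8.57 and 94.5 CPM in dCas9_CR10, against 7.61, 8.43 and 31.2 CPM in KRAB_no_gRNA.

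DDIT4, an inhibitor of mTORC1, had 149, 135 and 868 CPM in dCas9_CR10, against 151, 156 and 449 CPM in KRAB_no_gRNA. PSAT1, of serine synthesis, had 155, 175 and 388 CPM in dCas9_CR10, against 143, 159 and 187 CPM in KRAB_no_gRNA. Libraries numbered 3 were the highest of both groups for DDIT4 and PSAT1, and more so in dCas9_CR10. Library 3 of KRAB_CR4 had 851 CPM of DDIT4, 320 of PSAT1 and 85.1 of CHAC1. ATF4 itself had 267, 276 and 458 CPM in dCas9_CR10, against 281, 289 and 387 CPM in KRAB_no_gRNA (log2 fold change 0.07, 95% interval -0.53 to 0.66), and HSPA5, the main chaperone of the endoplasmic reticulum, had a log2 fold change of 0.07 (95% interval -0.17 to 0.32). The part that the culture or handling of libraries numbered 3 has in these values was not tested.

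**Figure D5:**
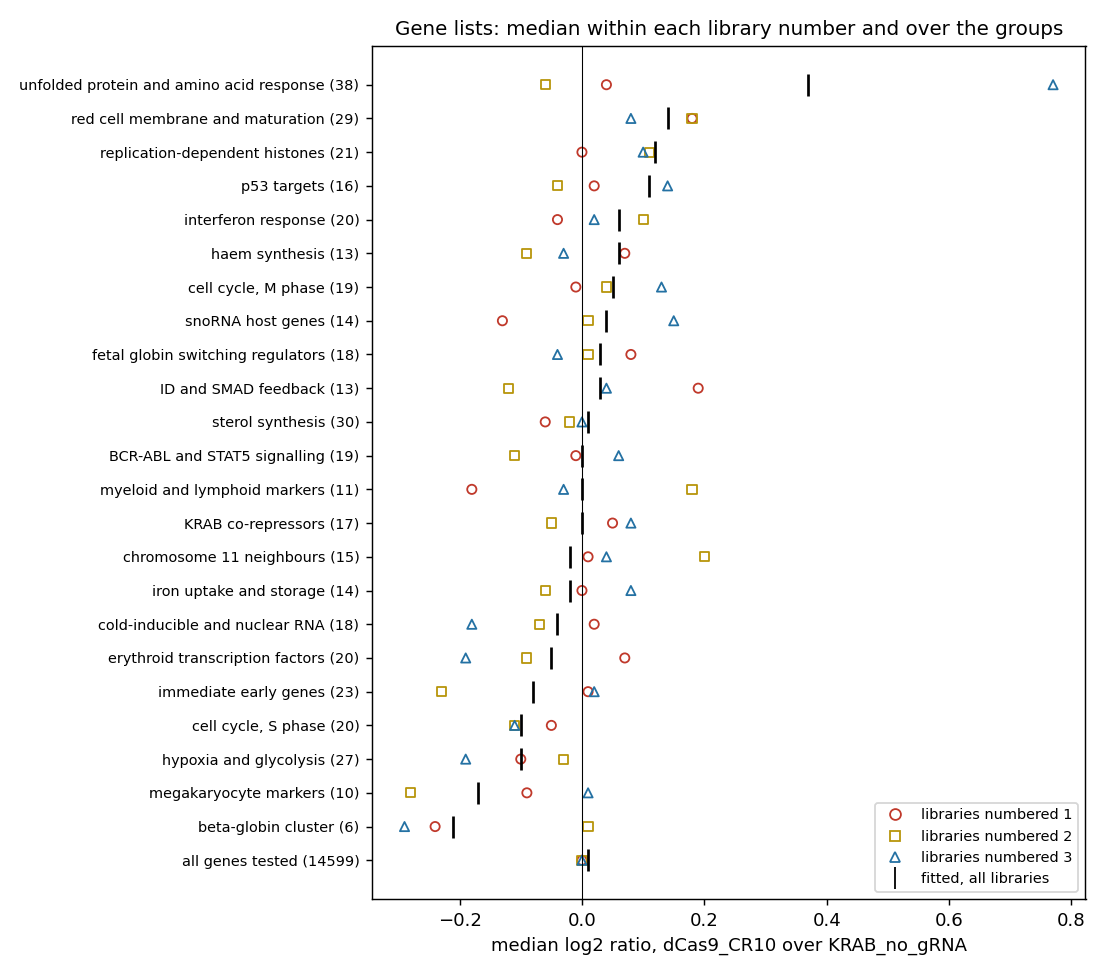
Median log2 ratio, dCas9_CR10 over KRAB_no_gRNA, of 23 gene lists with at least 5 tested genes and of all genes, for each library number (open symbols) and as fitted over all libraries (bars), with the number of genes tested in parentheses. The unfolded protein and amino acid response stands at 0.77 in the pair numbered 3 and at 0.04 and -0.06 in the pairs numbered 1 and 2, while the red cell membrane list stays at 0.08 to 0.18 in all 3.

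Genes of the red cell membrane and of maturation were mostly higher, with like medians in each pair. Of 29 tested, 22 had a positive log2 fold change and 0 were called. Their median was 0.14, and 0.18, 0.18 and 0.08 within numbers. There were 4 with no overlap, all higher, where 3.38% of all genes were higher and 2.49% lower without overlap. With the block 8 had an unadjusted p under 0.05, also all higher, where 5.34% of all genes were higher and 4.99% lower. RHD, of the Rh antigen complex, had 15.7, 20.9 and 16.2 CPM in dCas9_CR10, against 12.1, 13.9 and 14.5 CPM in KRAB_no_gRNA (log2 fold change 0.38 ± 0.15, 95% interval 0.05 to 0.71, edgeR adjusted p = 1), a value that reads of its near-identical neighbour RHCE make uncertain. RHAG, the partner of RHD in that complex, overlapped fully (0.04, 95% interval -0.21 to 0.28).

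ALAS2, the first and rate-limiting enzyme of erythroid haem synthesis, had 34.6, 32.7 and 30.4 CPM in dCas9_CR10, against 24.6, 26.9 and 21.8 CPM in KRAB_no_gRNA, with no overlap (log2 fold change 0.41 ± 0.15, 95% interval 0.09 to 0.74, edgeR adjusted p = 1). It was as high in dCas9_CR4, at 35.4, 40.7 and 34 CPM, and in KRAB_CR10, at 34.1, 32.8 and 27.6 CPM, and cells without lentivirus had 60.1, 61.5 and 60.3 CPM as scaled with all 18 libraries. Of 13 haem genes, 7 were higher, 6 lower and 0 called (median 0.06). HMOX2, a haem oxygenase, had 52.2, 52.6 and 39.3 CPM in dCas9_CR10, against 59.6, 56 and 61.7 CPM in KRAB_no_gRNA. Of 14 genes of iron uptake and storage, 6 were higher and 8 lower. TFRC, the transferrin receptor, had 1340, 1153 and 729 CPM in dCas9_CR10 and 1243, 1250 and 835 CPM in KRAB_no_gRNA, lowest in the library numbered 3 of each group.

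Cell cycle and glycolysis lists had medians of -0.10 to 0.05. S phase and glycolysis genes were mostly lower, where 52.1% of all genes were higher. Of 20 S phase genes 18 had a negative log2 fold change, with a median of -0.10, and 0 were called. MCM7, of the replicative helicase, had 691, 661 and 614 CPM in dCas9_CR10, against 769, 739 and 679 CPM in KRAB_no_gRNA (-0.15, 95% interval -0.38 to 0.07). Of 19 M phase genes 12 were positive (median 0.05), with CENPE, a kinetochore motor, at 109, 108 and 145 CPM in dCas9_CR10 and 93, 65.5 and 119 CPM in KRAB_no_gRNA. Of 27 genes of hypoxia and glycolysis 19 were negative (median -0.10), and PKM, pyruvate kinase, had 783, 867 and 708 CPM in dCas9_CR10, against 918, 980 and 936 CPM in KRAB_no_gRNA (-0.27 ± 0.12, edgeR adjusted p = 1). In all 3 pairs, 8 S phase genes were lower and 1 higher, and 9 genes of hypoxia and glycolysis were lower and 2 higher. Over all genes, 17.5% were lower and 17.5% higher in all 3 pairs. The medians were 0.06 over 20 interferon response genes, 0.11 over 16 p53 targets, 0.01 over 30 genes of sterol synthesis, 0.03 over 13 ID and SMAD feedback genes, 0.00 over 19 genes of BCR-ABL and STAT5 signalling and 0.00 over 17 KRAB co-repressors, with 0 called in each.

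Lists that follow RNA quality or other cells had no gene called. The median was 0.12 over 21 replication-dependent histones, whose mRNA lacks poly(A), 0.04 over 14 hosts of small nucleolar RNAs and -0.04 over 18 cold-inducible and nuclear RNAs. It was -0.17 over 10 megakaryocyte markers and 0.00 over 11 myeloid and lymphoid markers, 3 of 10 and 5 of 11 of them positive. Low-level leukocyte genes stood apart from that median: CD8A, a T cell coreceptor, had 1.86, 0.952 and 1.73 CPM in dCas9_CR10, against 0.641, 0.38 and 0.849 CPM in KRAB_no_gRNA, without overlap (log2 fold change 1.28 ± 0.64, 95% interval -0.15 to 2.71, edgeR adjusted p = 1). FCGR3A, an Fc receptor of natural killer cells and monocytes, had 0.321, 0.346 and 0.722 CPM in dCas9_CR10, against 0.24, 0 and 0.309 CPM in KRAB_no_gRNA, also without overlap (edgeR adjusted p = 1). Of the 3 fibroblast and epithelial markers tested, COL1A2 had 30.8, 28.4 and 31.9 CPM in dCas9_CR10 and 38, 33.7 and 40.8 CPM in KRAB_no_gRNA, without overlap (log2 fold change -0.30, edgeR adjusted p = 1). LYZ, lysozyme, was higher in dCas9_CR10 within each number, at 13.2, 17.1 and 28.5 CPM, against 10.7, 12.2 and 21.2 CPM in KRAB_no_gRNA. The part of other cells in the values above was not tested.

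Among genes tied to the construct or to the groups with the repressor, ZNF10, whose sequence the KRAB domain shares, had 6.56, 7.7 and 6.57 CPM in dCas9_CR10, against 6.17, 7.67 and 5.56 CPM in KRAB_no_gRNA (log2 fold change 0.10, 95% interval -0.37 to 0.57), and the groups overlapped. PCSK1N, an inhibitor of a prohormone convertase, had 14, 4 and 10 counts in dCas9_CR10, against 26, 32 and 16 counts in KRAB_no_gRNA (log2 fold change -1.50 ± 0.45, 95% interval -2.51 to -0.50, edgeR adjusted p = 1). It passed against KRAB_CR10, where it had 3.31, 1.6 and 2.59 CPM, against which dCas9_CR10 had 0.45, 0.173 and 0.361 CPM (log2 difference -2.88 ± 0.44, edgeR adjusted p = 0.0296). In dCas9_CR4 it had 0.437, 0.551 and 0.343 CPM, so both groups without the KRAB domain were under all 3 groups that carry it.

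ACSM3, a medium-chain acyl-CoA synthetase, had 32.5, 39.3 and 130 CPM in dCas9_CR10, against 62.4, 49.6 and 128 CPM in KRAB_no_gRNA (blocked log2 fold change -0.40 ± 0.12, edgeR adjusted p = 0.43). The library numbered 3 was the highest of each group, and the pairs differed, with log2 ratios of -0.93, -0.33 and 0.02. CA1, a carbonic anhydrase of red cells, had 9.9, 8.74 and 9.02 CPM in dCas9_CR10 and 5.93, 9.64 and 7.18 CPM in KRAB_no_gRNA (0.28, 95% interval -0.12 to 0.68). SERPINB8, a serine protease inhibitor, had under 1 CPM in each of the 6 libraries and a 95% interval from -1.16 to 1.58.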

How the data were processed

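Per the labels' protocols, mRNA was captured with oligo-dT and its double-stranded cDNA was cut and tagged by Nextera transposase, a preparation that marks no strand, so a gene and its antisense partner cannot be told apart. The authors deposited raw counts per RefSeq transcript (40709 lines per library). Per the submitters' processing notes, the build was hg19 and the tools included DESeq, R 3.1.2, Picard, SAMtools and Bowtie2. The counting tool and the treatment of reads with several matches are not given in the sources used here. All counts were even (0 odd), which is 2 per fragment.

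Transcripts were summed to 24394 genes by name. Of the accessions 39320 matched RefSeq, 521 matched GENCODE and 868 stayed unnamed, and the named ones held 99.02% of counts. The 15 lentiviral libraries were fitted together (5 group means, filterByExpr, TMM, edgeR 4.0.16 quasi-likelihood test, R 4.3.3, limma 3.58.1). Genes were called at a Benjamini-Hochberg adjusted p under 0.05. The 14599 genes tested held 99.97% of counts. Standard errors came from the test statistic and 95% intervals from residual degrees of freedom, 10 in the fit without a block. Log2 ratios within a number used CPM plus 0.5. CPM are TMM-scaled. Reads carry no molecular identifiers, so precision covers counting and the spread between libraries only.

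Whether the library number pairs libraries was checked over 10373 genes: all 30 same-numbered pairs of lentiviral libraries correlated above 0.1 (0.168 to 0.888), and 60 different-numbered pairs ranged from -0.789 to 0.639. The correlations were the ground for treating the numbers as pairs, and the labels give none. The biological coefficient of variation was 20.4% without the block and 10.5% with it. Alternatives were other samples, DESeq2 1.42.0, scalings, filters, halved counts and left-out libraries. The fitting code was tested on simulated data. Cells without lentivirus were left out of the main fit because they belong to neither group and stood apart in an earlier account.

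Members, lists and rules were chosen with earlier results of these data known. Named genes were the globins and ZNF10, the 10 smallest p in each fit outside the globin clusters at 1 CPM or more, up to 3 per list, and PCSK1N, ACSM3, CA1 and SERPINB8. GATA1, TAL1, KLF1, TFRC and LYZ are cell type markers. FUT1, CHAC1, DDIT4, PSAT1, ASNS, ATF4, HSPA5, FOSB, JUN and RHAG were chosen after their values were seen.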

Additional observations from a re-analysis of the deposited data

Results flagged for a closer look

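These results stood out because dCas9_CR10 and KRAB_CR10, which carry the same gRNA, differed when the difference itself was tested with the edgeR quasi-likelihood test. HBE1 differed by 2.16 on the log2 scale, dCas9_CR10 minus KRAB_CR10, with 327, 435 and 388 CPM in dCas9_CR10 and 95.9, 87.0 and 74.4 CPM in KRAB_CR10. HBG2 differed by 1.15, HBG1 by 1.02 and HBBP1 by 1.46, each higher in all 3 dCas9_CR10 libraries than in all 3 of KRAB_CR10. PCSK1N differed by -2.88, with 0.45, 0.173 and 0.361 CPM in dCas9_CR10 and 3.31, 1.6 and 2.59 CPM in KRAB_CR10.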

How the results depend on the processing

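Between dCas9_CR10 and KRAB_no_gRNA, 0 genes were called by edgeR under every alternative without the block, and by edgeR with the replicate block on the 15 libraries, also when each library was left out in turn. With the block and the 2 groups only, 5 genes were called, and leaving out library number 1, 2 or 3 there, with 1 residual degree of freedom, gave 32, 0 and 95. DESeq2 with the block called 4. Between dCas9_CR10 and dCas9_CR4 every alternative gave 0, with 71 to 924 genes at an unadjusted p under 0.05. Between dCas9_CR10 and KRAB_CR10, 5 genes were called, 1 with the 2 groups only (HBE1), 3 with all 18 libraries (HBE1, HBG1 and HBG2) and 2 to 4 with 1 library left out (2 without KRAB_CR10 library 3, and 3 without dCas9_CR10 library 1 or 2). The block changed no other call there beyond adding HBD and ACSM3. The cause of these changes was not tested.

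Of 2760 values for 100 named genes under alternatives, 2728 kept their direction and 32, in 13 genes, did not. All of the 32 came from leaving out libraries. HBE1 ranged from -0.34 to -0.16, HBG2 from -0.34 to -0.17 and HBG1 from -0.32 to -0.14. With libraries left out, the log2 fold change ranged from -0.66 to 0.12 for HBD, -0.22 to 0.03 for HBBP1, -0.18 to 0.09 for HBA1, -0.18 to 0.12 for HBA2, -0.14 to 0.29 for HBZ, -0.01 to 0.26 for LUC7L3, -0.05 to 0.20 for EPCAM, -0.75 to 0.19 for COL1A1, -1.16 to 0.27 for ACSM3 and -0.26 to 0.91 for SERPINB8 (0.54 without KRAB_no_gRNA library 3). With the block and libraries left out, the values of the opposite sign were -0.06 and -0.07 for HBZ, 0.03 for HBBP1 and HBA2, -0.02 and -0.03 for EPCAM, 0.13 and 0.19 for COL1A1, -0.01 for LUC7L3, and -0.24, -0.26, -0.06 and -0.01 for SERPINB8, and without the block COL1A1 reached 0.18. ULBP1 ranged from -0.04 to 1.71, INHBE from -0.36 to 2.33 and FUT1 from -0.37 to 2.09, each lowest without dCas9_CR10 library 3 and highest without KRAB_no_gRNA library 3. The cause was not tested. The median of the unfolded protein and amino acid response was 0.37 over all libraries, -0.05 with numbers 1 and 2 only and 0.41 without KRAB_no_gRNA library 3. The alternatives with the block and left-out libraries, with numbers 1 and 2 only, or with DESeq2 were chosen after seeing the data.

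Depth limits genes such as HBB, PCSK1N and SERPINB8, with few counts per library. With 3 libraries a group the median standard error without the block was 0.20 on the log2 scale. In that fit log2 fold changes of 0.50 (SKIL) and 1.09 (EGR1) were not called. DESeq2 with the block called SKIL, and the blocked edgeR fit of the 2 groups alone called EGR1.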
